A study of Mus musculus with 6 samples.

Results

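Cd79a, Cd79b, Cd22, Cd72, Cd81, Cd37 and Ms4a1 encode signalling chains of the B cell receptor and proteins that sit beside it in the B cell membrane. All probes whose gene name on the array was one of these 7 symbols were taken, including those that gave no signal, which gave 7 of the 28307 genes or sequences named on the array, and 11 of its 41174 probes. The RNA of mouse cells in culture was measured on 6 Agilent 1-colour (Cy3) arrays, 3 per group. Both groups were pre-pro-B cells (Fr.A Ebf1 -/- in the sample titles, Ebf -/- in the genotype label), which lack a working gene of their own for the transcription factor Ebf1, and all were grown on OP9 stromal feeder cells in Opti-MEM with 4% fetal bovine serum and with 10 ng/ml each of the cytokines IL7, SCF and Flt3L. Control cells received the retrovirus pMYs-IRES-EGFP, which carries only EGFP. Ebf1 cells received pMYs-Ebf1beta-IRES-EGFP, which carries Ebf1 and EGFP. EGFP-positive cells were sorted 24 h after infection. Each group is thus the sorted, infected part of a mutant culture, without a wild-type group, and expression of Ebf1 was driven by the virus rather than by its own gene. Strain, sex and age of the donor animals are not given in the sources used here, nor whether replicates came from separate cultures, so the p-values measure the spread between these samples, which may be technical.

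The B cell receptor is a membrane immunoglobulin bound to a heterodimer of Cd79a (Ig-alpha) and Cd79b (Ig-beta), whose cytoplasmic tails carry the tyrosine motifs that start signalling when Src family kinases phosphorylate them. Cd22, a sialic acid-binding lectin of the Siglec family, and Cd72, a C-type lectin-like receptor, carry inhibitory tyrosine motifs that recruit the phosphatase encoded by Ptpn6. Cd81 and Cd37 are tetraspanins, small membrane organisers that cross the membrane repeatedly. Ms4a1 encodes CD20, a membrane protein of B cells from the late precursor stages on. Cd79a, also known as mb-1, is a textbook target of Ebf1.

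The probes that crossed an intron in the genome are shown first, because they can only read spliced RNA over their full length and because they include the Cd79a probe, the sole probe for that gene. Their mm9 spans were longer than the 60 bases of the probe. The capitals mark the 32 bases that the Cd72 probes had in common, so these probes are not independent readings.
Cd79a A_52_P651316: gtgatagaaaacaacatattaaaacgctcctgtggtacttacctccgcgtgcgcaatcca
Cd22 A_52_P466268: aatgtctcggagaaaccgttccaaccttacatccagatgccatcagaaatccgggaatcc
Cd72 A_52_P14600: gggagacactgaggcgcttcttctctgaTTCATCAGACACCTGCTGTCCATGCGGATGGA
Cd72 A_51_P292736: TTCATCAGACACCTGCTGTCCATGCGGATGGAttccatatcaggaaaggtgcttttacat
The Cd79a probe spanned 258 bases (chr7:25684353-25684610), the Cd22 probe 1325 bases (chr7:31661143-31662467) and each Cd72 probe 2145 bases (chr4:43463070-43465214 and chr4:43463042-43465186, all mm9). The other 7 probes lay in single blocks of 60 bases.

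The 250 bases before the annotated start of Cd79a, Cd22, Cd72 and Cd81 are shown because Ebf1 was the factor added and its binding letters can be looked for there. They come from RefSeq promoter windows of GRCm38.p6, in which 5 of the 7 genes were found. Cd79b and Ms4a1 had no window there, so their letters could not be searched. Capitals mark matches to the letters TCCCNNGGGA (whole site), CCCNNGGG (its core) or CNNGGGA (a shorter form with the right arm of the site), searched on both strands. The whole site holds the core and the shorter form within it.
Cd79a, chr7:24897247-24897496, plus strand: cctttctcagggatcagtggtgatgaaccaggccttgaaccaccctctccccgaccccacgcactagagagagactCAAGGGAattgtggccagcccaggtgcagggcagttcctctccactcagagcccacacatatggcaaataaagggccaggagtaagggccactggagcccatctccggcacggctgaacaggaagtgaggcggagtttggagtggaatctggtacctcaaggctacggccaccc
Cd22, chr7:30879029-30879278, minus strand: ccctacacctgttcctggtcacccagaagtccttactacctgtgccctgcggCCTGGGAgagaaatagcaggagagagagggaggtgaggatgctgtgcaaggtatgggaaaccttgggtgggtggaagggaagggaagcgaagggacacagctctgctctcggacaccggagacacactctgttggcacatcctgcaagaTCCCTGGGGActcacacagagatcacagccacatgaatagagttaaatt
Cd72, chr4:43454627-43454876, minus strand: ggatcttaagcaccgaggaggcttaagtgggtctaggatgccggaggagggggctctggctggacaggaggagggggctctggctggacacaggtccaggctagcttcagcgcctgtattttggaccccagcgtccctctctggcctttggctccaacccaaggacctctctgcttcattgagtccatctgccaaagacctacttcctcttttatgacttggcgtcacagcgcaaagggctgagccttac
Cd81, chr7:143052500-143052749, plus strand: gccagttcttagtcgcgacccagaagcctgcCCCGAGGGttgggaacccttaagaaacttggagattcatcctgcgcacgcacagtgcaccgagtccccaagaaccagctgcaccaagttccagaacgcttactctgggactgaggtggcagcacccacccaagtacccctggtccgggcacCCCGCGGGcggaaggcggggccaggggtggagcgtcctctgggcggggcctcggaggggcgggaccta
The whole site occurred in the window of Cd22, at -49 to -40 from the start, and in 0.779% of all 32851 windows. The core occurred in Cd22 and at separate places in Cd81, at -219 to -212 and at -68 to -61, and in 11.8% of all windows. The shorter form occurred in Cd79a at -174 to -168, in Cd22 and in Cd37, and in 51.5% of all windows. In the Cd72 window none of these letters was found. These matches are descriptions of the letters, not of binding.

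All levels below are log2 of the processed signal minus the log2 of the 75th percentile signal of the same array, so that 0 is the 75th percentile. Levels of different probes are not comparable. A probe was tested when the scanner software called it well above background on all 3 arrays of at least 1 group. Of the 11 probes 8 passed, which covered 5 of the 7 genes. Cd79a and Cd22 did not pass.

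Cd79b rose steeply. Its level was -1.91, -2.08 and -1.85 in control replicates 1, 2 and 3, and 5.64, 5.34 and 5.46 in Ebf1 replicates 1, 2 and 3. All 6 arrays were well above background, and the lowest Ebf1 array lay far above the highest control array. The probe (chr11:106172780-106172839, mm9) changed by 7.42 ± 0.15 on the log2 scale (SE of limma, adjusted p = 4.63e-07), or 171-fold with a 95% interval of 135 to 218-fold. In bulk RNA, fewer cells that carry a transcript and less of it per cell cannot be told apart. With normexp background correction, which adds an offset to every signal, the log2 change was 6.58. Between control replicate 2 and Ebf1 replicate 1, which shared a slide, it was 7.71.

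The partner chain Cd79a was at the edge of detection on every array. Its processed signals were 7.20, 2.57 and 3.80 intensity units in control replicates 1 to 3, and 8.86, 7.73 and 7.32 in Ebf1 replicates 1 to 3. The spot was well above background on 0 of the 6 arrays, although the software's weaker test of spot against local background gave a p of 0.88 for control replicate 2 alone and of 8.5e-08 or less for each of the other 5 arrays. The Ebf1 arrays were all above the control arrays, as were those of 18.8% of the tested probes. The Cd79a probe was not among the tested probes, and the share for probes as dim as this is not given here. The log2 levels averaged -6.11 ± 0.44 on control arrays and -5.43 ± 0.06 on Ebf1 arrays (SD, n = 3 each). Cd79a was not tested in the main comparison. When the filter on dim probes was dropped, its log2 difference of 0.68 did not pass (limma adjusted p = 0.241). No fold is given for a probe that was not well above background in either group. A difference between the groups was not detectable at this signal.

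**Figure D1:**
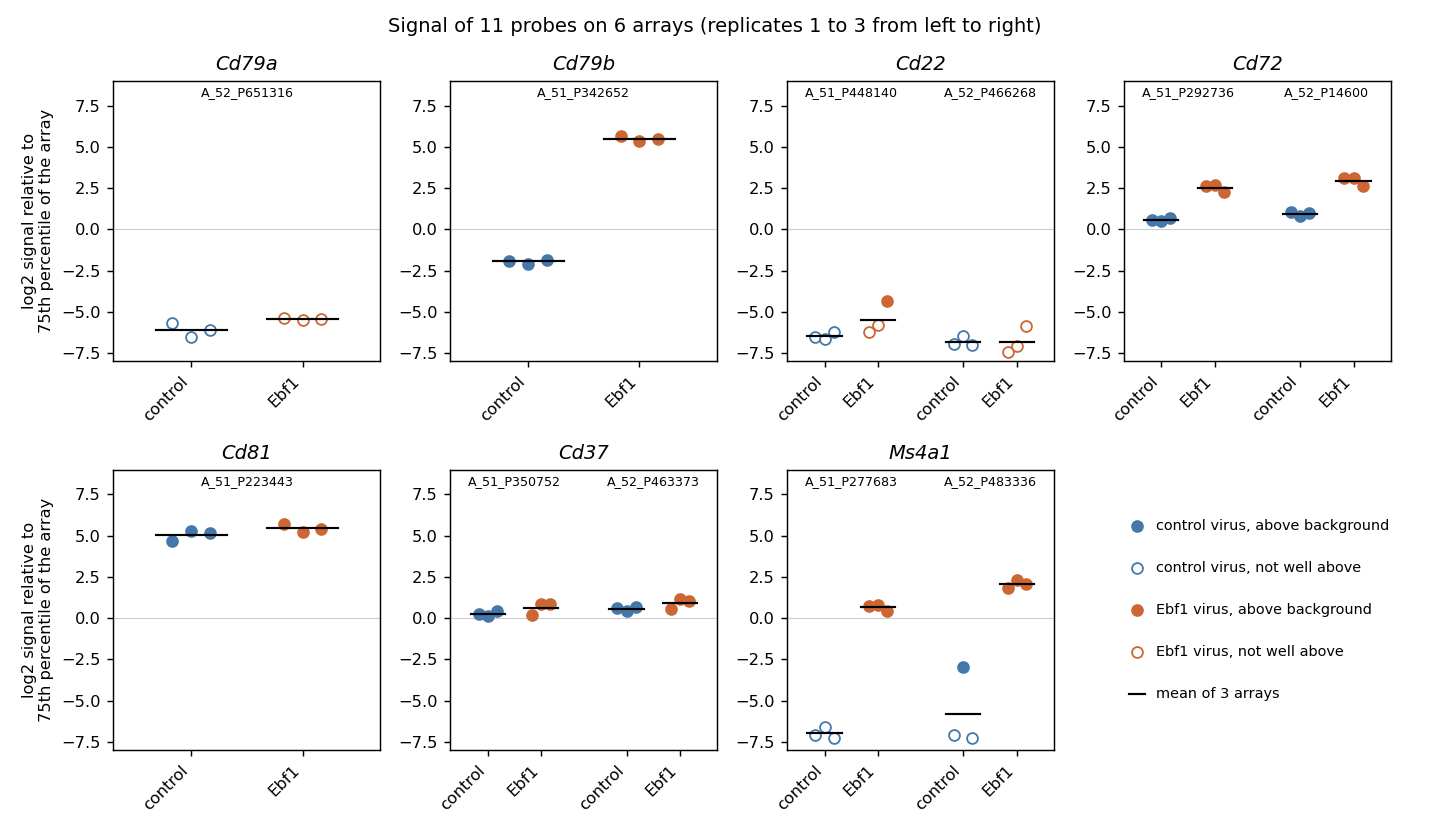
Level of each of the 11 probes on each array (vertical axis, log2 signal relative to the 75th percentile of the array) in control and Ebf1 cells, with replicates 1 to 3 from left to right, filled circles for spots well above background and a bar for the mean of 3 arrays. On every Ebf1 array Cd79b and both probes of Cd72 and of Ms4a1 are above all control arrays, as are 18.8% of tested probes. Cd79a, which was not tested, is also higher on every Ebf1 array but not well above background on any array. Cd81 and Cd37 overlap between the groups. Cd22 is not well above background except for 1 probe on Ebf1 replicate 3.

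Among the inhibitory coreceptors, Cd72 rose and was already present without Ebf1. Probe A_52_P14600 read 1.06, 0.84 and 0.99 in control replicates 1 to 3, and 3.13, 3.09 and 2.66 in Ebf1 replicates 1 to 3. Probe A_51_P292736 read 0.56, 0.49 and 0.68, and then 2.63, 2.72 and 2.26. For both probes the Ebf1 arrays were all above the control arrays, as were those of 18.8% of the tested probes. Ebf1 replicate 3 was the lowest of its group for both. The log2 changes were 2.00 ± 0.17 (limma adjusted p = 0.000179) and 1.96 ± 0.17 (adjusted p = 0.000162). The first corresponds to 3.99-fold, with a 95% interval of 3.02 to 5.29-fold. Between the arrays that shared a slide, the changes were 2.29 and 2.15.

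Cd22 had no level that could be compared. Its intron-crossing probe was well above background on 0 of 6 arrays, with processed signals of 2.02 to 2.99 in control and 2.07 to 5.37 in Ebf1 cells. The other probe (chr7:31651590-31651649, mm9) gave 3.95, 2.37 and 3.46 in control replicates 1 to 3, and 4.79, 6.11 and 15.5 in Ebf1 replicates 1 to 3. Only Ebf1 replicate 3 was well above background. The signal on this array was 1.75 times the dimmest spot called well above background there. Without the filter on dim probes the log2 differences were -0.01 and 1.00, and neither passed (limma adjusted p = 0.995 and 0.32). The probe that read a signal on Ebf1 replicate 3 lay further along the transcript than the other, with 2015 bases between them. By the call of well above background, a Cd22 transcript in Ebf1 cells was therefore read by 1 of 2 probes on 1 of 3 arrays. In the software's weaker test of spot against local background, this probe had p of 1.3e-11, 8.4e-12 and 2.4e-50 in Ebf1 replicates 1 to 3. In control replicates 1 to 3 it had 0.00016, 0.80 and 3.7e-07. The intron-crossing probe had 2.2e-11 on Ebf1 replicate 3 and 0.12 or more on each other array.

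The tetraspanins were well above background on all 6 arrays and did not pass the test. Cd81 (chr7:150253737-150253796, mm9) read 4.67, 5.27 and 5.13 in control replicates 1 to 3, and 5.73, 5.21 and 5.39 in Ebf1 replicates 1 to 3. Ebf1 replicate 2 lay below control replicate 2, so the groups overlapped. The log2 change was 0.42 ± 0.21 (limma adjusted p = 0.2), and its 95% interval, 0.947 to 1.89-fold, reaches from a small decrease to an increase below that of Cd72.

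Cd81 is made by many cell types, stromal cells among them. Of 12 tested markers of the stromal feeder 3 rose, 0 fell and 9 did not pass, where 12.6% of all tested genes rose. The summed signal of all 15 on the array, in units of the 75th percentile, was 20.0 to 27.7 on control arrays and 31.0 to 38.3 on Ebf1 arrays. Dcn and Postn, which mark fibroblast-like cells, were well above background on 0 arrays. When control replicate 1 or 3 was left out 0 stromal markers were called, and when any Ebf1 replicate was left out 1 was. The count was also 0 without the filter on dim probes and 1 with slide as a fixed block, against 7 with normexp correction and 6 with the trend and robust options of eBayes. The part of feeder RNA in the Cd81 signal was not tested.

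Cd37 was read by a pair of probes 16 bases apart. Probe A_52_P463373 (chr7:52490856-52490915, mm9) gave 0.60, 0.41 and 0.66 in control replicates 1 to 3, and 0.55, 1.16 and 1.05 in Ebf1 replicates 1 to 3. Probe A_51_P350752 (chr7:52490780-52490839, mm9) gave 0.26, 0.13 and 0.44, and then 0.19, 0.88 and 0.83. Both probes showed the same arrangement, with Ebf1 replicates 2 and 3 above all control arrays and Ebf1 replicate 1 among them. The log2 changes were 0.36 ± 0.19 and 0.36 ± 0.21 (limma adjusted p = 0.221 and 0.268), with 95% intervals of 0.939 to 1.76-fold and 0.908 to 1.81-fold. Without Ebf1 replicate 1 the second probe was at 0.58 and passed (adjusted p = 0.048). On the slide that held control replicate 2 and Ebf1 replicate 1, the changes were 0.14 and 0.06.

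Ms4a1 went from background to a clear signal. Probe A_51_P277683 (chr19:11325827-11325886, mm9) was not well above background on any control array, at -7.09, -6.63 and -7.27, and read 0.72, 0.80 and 0.44 in Ebf1 replicates 1 to 3. The Ebf1 arrays were tightly grouped and far above the controls. Ms4a1 was at least 40.9-fold higher by this probe, taking each control array at the dimmest signal called well above background on it (measured means -7.00 and 0.65, limma adjusted p = 9.4e-07). With normexp correction its log2 change was 3.31.

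The other Ms4a1 probe, A_52_P483336 (chr19:11325367-11325426, mm9), gave 1.83, 2.34 and 2.05 in Ebf1 replicates 1 to 3. In control replicates 1 and 3 it was not above background, at -7.12 and -7.29, whereas control replicate 2 read -2.96 and was well above background. This array alone widened the control spread to an SD of 2.46 (n = 3). The fitted log2 change of 7.86 ± 1.04 passed (limma adjusted p = 0.00163) but is not a size, because 2 of 3 control arrays gave no level. Between control replicate 2 and Ebf1 replicate 1, both measured and on the same slide, the difference was 4.78, or 27.5-fold. Without control replicate 2 the fitted change was 9.28. On control replicate 2 the first Ms4a1 probe, 400 bases away in mm9, was not well above background, and Cd79b was lower than on the other control arrays.

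By the probe with the highest mean for each gene, Cd79b, Cd72 and Ms4a1 rose, 0 of the 7 genes fell, Cd81 and Cd37 did not pass, and Cd79a and Cd22 were not tested. The same rule called 12.6% of the 13836 tested genes higher and 11% lower. Over probes, 11.5% of 20454 were called higher and 10.2% lower. The median log2 change of the 5 tested genes was 2.00, against -0.06 for all tested genes. The genes that passed include Ms4a1, which entered the test through its Ebf1 arrays.

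**Figure D2:**
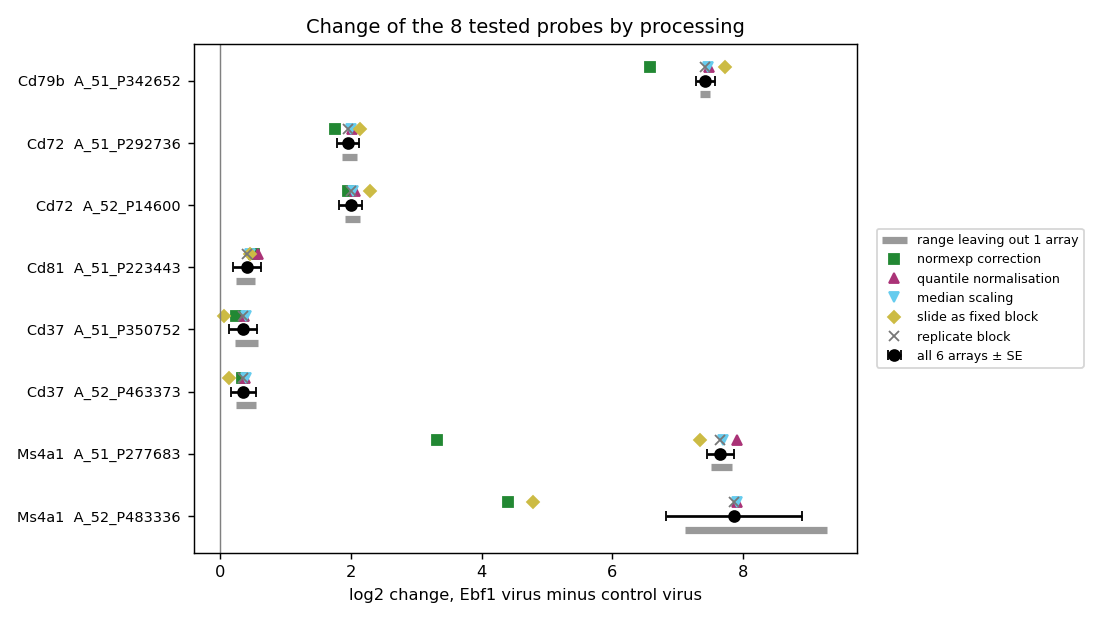
Log2 change of each of the 8 tested probes, Ebf1 virus minus control virus (horizontal axis), with the SE of limma (bars), 5 other processing choices (symbols) and the range when single arrays were left out (grey). Cd79b ranges from 6.58 with normexp correction to 7.71 with slide as a block, Cd72 stays near 2, Ms4a1 is smaller with normexp correction (3.31 and 4.41), and Cd81 and Cd37 stay between 0 and 1.

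Genes whose 6 array values, centred on their own mean, lay closest to those of a member were found by Euclidean distance among 9587 genes well above background on all 6 arrays. This measure takes in both the size of the group difference and the scatter of arrays. Closest to Cd79b were Evpl, which encodes envoplakin (distance 0.75, log2 change 7.96), Vpreb1, part of the surrogate light chain (1.07, log2 change 8.20), and Tmem184a (2.22, log2 change 5.71). Closest to Cd72 were Tmem79 (0.22), Ech1, a peroxisomal and mitochondrial isomerase (0.24), and the kinase gene Prkcd (0.26), with log2 changes of 1.95, 1.92 and 1.87. Closest to Cd81 were Tmem132a, Slc23a2 and Yod1, at distances of 0.14 to 0.18, and closest to Cd37 were 4930404N11Rik, Proser3 and Pias4, at the same range of 0.14 to 0.18. The neighbours of Cd81 and Cd37 had changes of 0.26 to 0.48, which follows from a measure that takes in the size of the change. Genes not well above background on all 6 arrays, Ms4a1 among them, could not be named.

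The surface partners of the receptor and its coreceptors were taken from a list of 31 genes, of which 23 were tested. Of these 8 rose, 1 fell and 14 did not pass, with a median log2 change of 0.29. Over all tested genes 12.6% rose and 11% fell. Among the members with the smallest p were Cd40, a costimulatory receptor, at least 2.94-fold higher (limma adjusted p = 0.000538), and Cd52, a small glycosylated surface peptide, which rose by 1.27 ± 0.19 on the log2 scale. Cd40 was well above background on 0 of the 3 control arrays. With slide as a fixed block 2 genes of the list rose and 0 fell, Cd40 among those that stayed called, while Cd52 did not (adjusted p = 0.0939). Without the filter on dim probes 5 rose, and without control replicate 2 also 5.

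Further genes of this list were chosen here after their values were seen. Cr2, a complement receptor, was well above background on 0 of 6 arrays. Ifitm1, an interferon-induced membrane protein also known as Leu-13, rose by 0.76 ± 0.16 (limma adjusted p = 0.0128, 0.221 with slide as a block).

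Among 18 tested proximal signalling partners 3 rose, 2 fell and 13 did not pass, with a median of 0.02. These counts are near the shares over all tested genes, of which 12.6% rose and 11% fell. Plcg2, the phospholipase activated below the receptor, rose by 0.93 ± 0.14, Inpp5d, which encodes the inositol phosphatase SHIP-1, rose by 1.08 ± 0.17, and Lat2, an adaptor, with 1 of 2 tested probes called, fell by 0.80 (limma adjusted p = 0.00342, 0.00395 and 0.00592). With slide as a fixed block 0 of the 18 were called, and 1 in place of 2 fell without control replicate 2, without control replicate 3 or without the filter on dim probes. Lyn, Syk and Ptpn6, chosen after their values were seen, act on the tails of the members and gave small differences. Lyn was at -0.08 ± 0.20, Syk at -0.03 ± 0.15 and Ptpn6, the phosphatase recruited by Cd22 and Cd72, at 0.35 ± 0.14 (limma adjusted p = 0.108). With normexp correction Ptpn6 passed narrowly (adjusted p = 0.0479). Blk, a further kinase of this list, was not tested. Blnk, the adaptor between Syk and phospholipase, was well above background on the Ebf1 arrays alone and uneven there, at -5.00, -4.06 and -0.94 in Ebf1 replicates 1 to 3. Its call (adjusted p = 0.0316) held in 2 of the 6 fits that left out 1 array. Blnk also lost its call with normexp correction (adjusted p = 0.0983) and with slide as a fixed block (0.487).

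The families of Cd81 and Cd37, of Ms4a1 and of Cd22 were examined next. Of 19 tested tetraspanins, Cd81 and Cd37 included, 6 rose, 3 fell and 10 did not pass, with a median of 0.36. Over all tested genes 12.6% rose and 11% fell. Tspan33 rose by 2.56 ± 0.16 (limma adjusted p = 4.21e-05), from -1.75, -1.52 and -1.33 in control to 1.18, 1.01 and 0.90 in Ebf1 cells. Tspan14, a partner of the protease ADAM10, rose by 1.35 ± 0.15, and Tspan4 fell by 1.37 on the log2 scale. These 3 passed with slide as a fixed block too, where 2 tetraspanins rose and 2 fell. Without control replicate 2 the count was 2 and 2, without control replicate 1 it was 3 and 2, and without Ebf1 replicate 1 or 3 it was also 3 and 2.

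Of the Ms4a family, 14 genes were on the array and 12 of these were well above background on 0 arrays. Ms4a1 was the sole member tested. Of the Siglec family of Cd22, 5 of 8 were tested, with 1 rise and 2 falls, beside 12.6% and 11% of all tested genes. Siglech and Siglecf fell by 1.03 and 0.84 on the log2 scale and Cd33 rose by 0.80 ± 0.20 (limma adjusted p = 0.0148, 0.0263 and 0.0293). With normexp correction, which shrinks differences between dim signals, 0 of the 5 were called. When single arrays were left out, 0 Siglecs rose if that array was control replicate 1 or 2, or Ebf1 replicate 2 or 3, and 2 rose if it was Ebf1 replicate 1. Siglecg, the Siglec closest to Cd22 in function on B cells, was not well above background in control cells and did not pass, at -5.20, -5.17 and -5.20 in control and -5.15, -4.47 and -4.12 in Ebf1 cells (chosen after its values were seen).

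**Figure D3:**
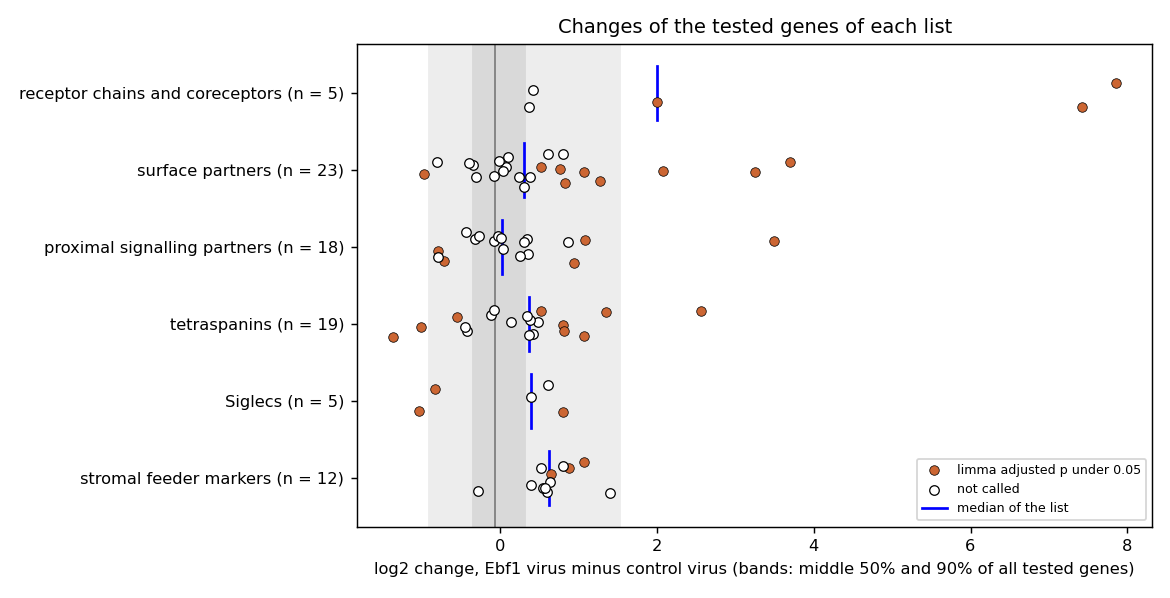
Log2 change of each tested gene (horizontal axis, Ebf1 virus minus control virus) by list, with filled circles for genes called by limma, blue bars for list medians, and grey bands from the 25th to the 75th and from the 5th to the 95th percentile of all tested genes. Cd79b and Ms4a1 lie far to the right of the genes of the 5 other lists drawn, whose medians are between 0.02 and 0.61, and the values of genes that were dim in control cells are fitted values rather than sizes.

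The arrays had 75th percentile signals of 240 to 366 intensity units, and 46.3% to 59.8% of probes were well above background. Of the Ebf1 probes 1 was above background and did not change detectably (log2 change -0.15 ± 0.21, limma adjusted p = 0.646), and whether it reads the viral transcript is not known here. The level of Ptprc (CD45) averaged 4.83 ± 0.16 on control arrays and 4.74 ± 0.06 on Ebf1 arrays (SD, n = 3). Blood cells in general carry CD45, so this level does not check the pre-pro-B label. All 11 early lymphoid markers were tested, of which 4 rose and 4 fell: Ly6d rose by 2.62 ± 0.19, whereas Spn (CD43) and Il7r fell by 1.60 and 1.69. Of 4 tested later B cell and plasma cell markers 2 rose and 0 fell, and with slide as a fixed block 1 rose. Cr2, Fcer2a and Prdm1 of this list were well above background on 0 arrays. Of the markers of other cells, 3 of 6 tested T cell genes, 2 of 2 natural killer genes and 4 of 7 myeloid and dendritic genes fell, and 1 myeloid gene rose. With slide as a fixed block, fewer genes of each of these lists were called lower. The median log2 changes of the tested T cell, natural killer and myeloid genes were then -0.79, -1.71 and -0.93, against -0.91, -1.60 and -0.86 in the main fit. Of 2 tested erythroid and megakaryocyte genes, 1 rose and 1 fell. Over all tested genes 12.6% rose and 11% fell.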

How the data were processed

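Per the file headers, the deposited spot intensity values are processed signals of Agilent's Feature Extraction software (version 10.5.1.1), corrected for background and for spatial trends. The deposited files also give a p-value of each spot against background, used as a description. Probe positions are those of mm9, per the file headers. Intensities were divided by the 75th percentile of the 43379 non-control features, taken to log2, and averaged per probe after leaving out outlier spots (65 to 116 per array). No spot was saturated. Groups were compared with limma 3.58.1 in R 4.3.3 (lmFit, eBayes, two-sided, Benjamini-Hochberg over 20454 probes, threshold 0.05). The fit was tested on simulated data. The deposited value table equals the processed signal. Symbols were updated by RefSeq accession for 25097 probes. Members, lists and the naming rule were chosen with earlier results of these data known: all member probes, up to 3 called genes per list with the smallest p, and the 3 nearest profiles. A gene that the rule names in the list of surface partners is not reported here. Control replicates 1 and 3 shared a slide, as did control replicate 2 and Ebf1 replicate 1, and Ebf1 replicates 2 and 3. Each slide was scanned once, so slide and scan are the same batch. Alternatives were normexp correction, other scalings and filters, blocks and leaving out arrays.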

Additional observations from a re-analysis of the deposited data

How the results depend on the processing

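The calls for Cd79b, Cd72 and both Ms4a1 probes held in the alternatives that could test them, Cd81 did not pass in any, and Cd37 passed, by 1 of 2 probes, without Ebf1 replicate 1 alone. Ms4a1 could not be tested with the filter asking for all 6 arrays, which left 2 member genes called higher. Over all probes, 2350 were called higher and 2085 lower. These counts were 1341 and 655 without the filter on dim probes, where 41174 probes were tested, and 1269 and 898 with slide as a fixed block, which leaves the comparison to control replicate 2 and Ebf1 replicate 1. With the replicate block 1233 were called lower. Same-numbered samples did not deviate together (correlations -0.17, -0.25 and 0.10). The largest correlation, 0.29, was that of control replicate 2 with Ebf1 replicate 1, which shared a slide. Whether the numbers pair the samples is not settled by this, because slides cut across numbers and deviations were from means of 3 arrays. Leaving out 1 array gave 1594 to 2126 higher and 1016 to 1687 lower calls, with 1016 without control replicate 2, 1062 without control replicate 3 and 1272 without Ebf1 replicate 2. Signal over background limits Cd79a and Cd22, for which a change smaller than the distance to background cannot be seen.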

Other observations

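For 2 member probes a single array of a group stood apart from the other arrays of that group. The Ms4a1 probe A_52_P483336 was well above background on control replicate 2 alone among the controls, at a processed signal of 30.9 against 2.63 and 1.67 on the other control arrays. On the whole array, 18 probes were above background on this control array alone and on all 3 Ebf1 arrays, against 170 and 275 for control replicates 1 and 3. Control replicate 2 also had the smallest share of probes above background, 46.3%, against 49.9% and 50.2% on those arrays, so these counts are not on equal terms. The Cd22 probe A_51_P448140 was well above background on Ebf1 replicate 3 alone, the array with 59.8% of probes above background. Blnk was also higher on this array (-0.94) than on the other Ebf1 arrays.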
